A study of Rattus norvegicus with 4 samples.

Results

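The mRNAs described here are the 6 mitochondrially encoded subunits of respiratory complexes III, IV and V, measured by RNA-Seq in rat thoracic aorta (AO) and small mesenteric arteries (MA). They were taken by Ensembl identifier as mt-Co1 (ENSRNOG00000034234), mt-Co2 (ENSRNOG00000030371), mt-Co3 (ENSRNOG00000030700), mt-Atp6 (ENSRNOG00000031979), mt-Atp8 (ENSRNOG00000033299) and mt-Cytb (ENSRNOG00000031766), which is 6 of the 26313 identifiers listed for each sample. The identifiers and not a cutoff on levels define the 6, although earlier results of these data were known when they were picked. The vessels came from adult male Sprague-Dawley rats with no treatment, as 2 samples of AO and 2 of the mesenteric arterial arcade without the superior mesenteric artery. A single rat gave AO1 and MA1, and 2 further rats gave AO2 and MA2. Whole dissected vessels were homogenized, so each sample held every cell type of the vessel, and the methods mention cleaning off fat for the mesenteric arcade. The lists pair no identifier with a symbol, so the vessel labels were not checked against cell type markers.

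These genes lie on the small circular genome that mitochondria keep for themselves. Their heavy strand is transcribed as 1 long RNA, from which transfer RNAs are cut out to release the mRNAs, and most of these mRNAs then receive short poly(A) tails. mt-Cytb encodes cytochrome b, the heme-bearing core of complex III. mt-Co1, mt-Co2 and mt-Co3 encode the core of cytochrome c oxidase (complex IV), which passes electrons to oxygen, and mt-Atp6 and mt-Atp8 encode membrane subunits of ATP synthase (complex V). The other subunits of these complexes come from nuclear genes. Tissues that rely on oxidative metabolism, such as heart and brown fat, are known for high levels of such mRNAs.

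Values are RPKM, reads scaled to the length of the gene and the size of the library, so levels of different genes can be compared per length. The steps between RPKM values gave back whole reads and lengths. The 4 libraries held between 83311442 and 90305293 reads as the RPKM count them, of which between 72524718 and 82449448 fell on listed genes. The lengths were 1545 bases for mt-Co1, 1143 for mt-Cytb, 784 for mt-Co3, 681 for mt-Atp6 and 204 for mt-Atp8. For mt-Co2 the shortest length that gave whole reads was 342 bases, and 684 bases gave them as well, so the true reads of mt-Co2 can be 2 times those recovered while its RPKM is not affected. mt-Co1 is known as the longest of the 6 genes and mt-Atp8 as the shortest, and the recovered lengths had the same order at both ends. The smallest number of reads behind any of the levels was 198139, for mt-Atp8 in MA2, so counting error was small beside the spread between samples.

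The 6 mRNAs were among the most abundant in both vessels and were higher in both AO samples than in both MA samples, by 3.49-fold to 4.26-fold in the means of RPKM, although mt-Atp6 and mt-Atp8 changed sign under quantile normalization, which gives genes of equal rank equal values. In the fit across all genes, 4 of the 6 passed the limits as enriched in AO, when 6.77% of all genes did, and mt-Co3 and mt-Atp8 did not pass. These calls lay close to the limit, and under 10 of 19 other settings 0 of the 6 passed. Among these were the RPKM as deposited and limma-voom, where 3.61% and 7.59% of all genes passed as enriched in AO. Also among them was no filter, where 0 of all genes passed, so the result there is not particular to the 6. Fits without a sample left a vessel with no replicate, so their counts decide nothing. The 6 mRNAs made up at least 41.2% of a sample's total RPKM in AO and at most 23.2% in MA. In tissue samples like these, fewer cells of a type and less RNA per cell cannot be told apart.

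Of the complex IV subunits, mt-Co1 encodes the catalytic subunit, where oxygen is reduced. It was at 83289 RPKM in AO1 and at 71342 RPKM in AO2, whereas MA1 had 23682 RPKM and MA2 had 14017. The AO samples were close to each other and the MA samples lay well below both. The means were 77315 ± 8448 (SD, n = 2) in AO and 18849 ± 6834 (SD, n = 2) in MA, 4.10-fold apart.

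mt-Co2 encodes the subunit that takes electrons from cytochrome c. Its level was 49043 RPKM in AO1 and 31151 in AO2, and 11492 in MA1 and 7320 in MA2. AO1 was 1.57 times AO2 and MA1 was 1.57 times MA2, yet the vessels did not overlap, and the means of 40097 ± 12651 (SD, n = 2) in AO and 9406 ± 2950 (SD, n = 2) in MA were 4.26-fold apart, the widest of the 6 on this scale. mt-Co3 encodes the remaining core subunit, which carries no redox metal. AO1 had 64730 RPKM of it and AO2 had 43673, while MA1 had 18408 and MA2 had 9528. The MA samples differed more in mt-Co3 than in any other of the 6, with MA1 1.93 times MA2, and the means differed 3.88-fold.

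Of the complex V subunits, mt-Atp6 encodes subunit a, part of the path of protons through the membrane. AO1 stood at 78504 RPKM and AO2 at 55876, MA1 at 23716 and MA2 at 13616, and the means of 67190 ± 16000 (SD, n = 2) in AO and 18666 ± 7142 (SD, n = 2) in MA were 3.60-fold apart. mt-Atp8 encodes a short membrane subunit, and its reading frame overlaps the start of mt-Atp6 on a shared mRNA. Its level was 63210 RPKM in AO1 and 45472 RPKM in AO2, falling to 19966 RPKM in MA1 and 10919 RPKM in MA2, and the means differed 3.52-fold. For both mRNAs the lower AO sample was more than 2-fold above the higher MA sample. How reads in the overlap were assigned is not given in the sources used here, so the levels of this pair and their sum are less certain to that extent.

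mt-Cytb, the only subunit of complex III encoded in mitochondria, had the lowest level of the 6 in all 4 samples. The AO samples had 29512 and 22596 RPKM and the MA samples 9616 and 5328, in replicate order, with means of 26054 ± 4890 (SD, n = 2) in AO and 7472 ± 3032 (SD, n = 2) in MA, 3.49-fold apart. The pattern over the samples was the same as for the other 5, with AO1 highest, then AO2, MA1 and MA2.

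**Figure D1:**
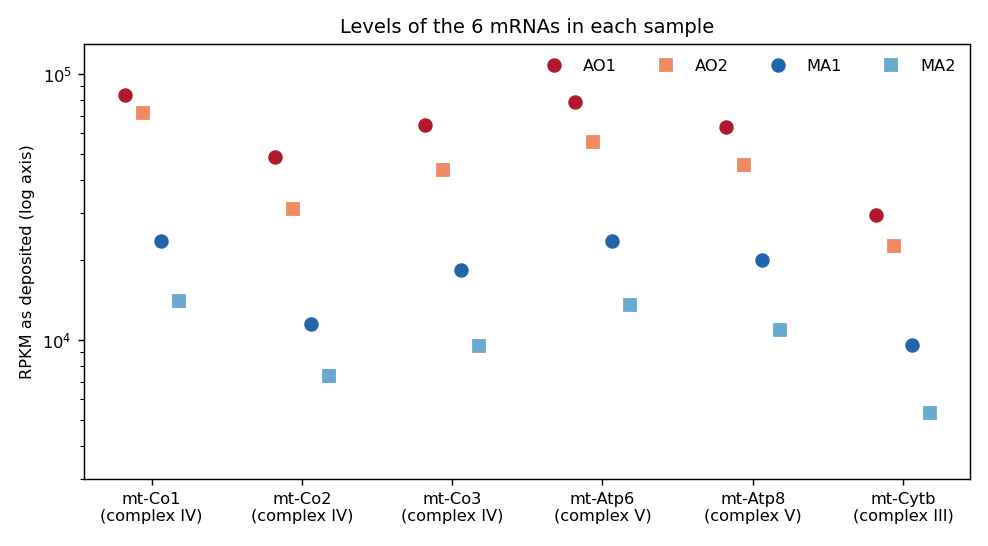
RPKM as deposited (log axis) of the 6 mRNAs in each sample, 1 point per sample, circles for replicate 1 and squares for replicate 2, red for AO and blue for MA. Both AO points lie above both MA points for each mRNA, from 83289 RPKM for mt-Co1 in AO1 down to 5328 for mt-Cytb in MA2 (under quantile normalization, not plotted here, mt-Atp6 and mt-Atp8 change sign).

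The groups did not overlap for any of the 6, with both AO samples above both MA samples. Among all 7203 genes tested, this held for 15.4% with the RPKM as deposited and for 34.4% after scaling. The smallest difference between a single AO and a single MA sample was 2.28-fold, for mt-Atp8 in AO2 against MA1, and the largest was 6.79-fold, for mt-Co3 in AO1 against MA2. Within the rat that gave both vessels, AO1 was above MA1 by 3.07-fold for mt-Cytb up to 4.27-fold for mt-Co2. With 2 samples in each vessel, the smallest two-sided p of an exact permutation test is 0.33, so no test of single values was made.

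Per length, the order of the 6 levels was much the same in the 4 samples. mt-Co1 was highest in AO1, AO2 and MA2, with mt-Atp6 second. In MA1 mt-Atp6 was first by a small margin, and the SDs of the pair overlapped in both vessels. mt-Co3 and mt-Atp8 came next, mt-Co3 ahead in AO1 and mt-Atp8 ahead in the other samples, and their means of 54202 ± 14890 and 54341 ± 12542 RPKM (SD, n = 2) in AO hardly differed. mt-Co2 came before last and mt-Cytb last in all 4 samples. Among all identifiers, the 6 held places 1 to 7 in AO1 and 1 to 8 in AO2, with 1 and 2 other identifiers among them. They held places 1 to 7 in MA1 as well. In MA2 mt-Co1, mt-Atp6 and mt-Atp8 took places 1 to 3, but mt-Co3 was at place 10, mt-Co2 at 20 and mt-Cytb at 23.

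Set against each sample's total over all genes, the 6 mRNAs together took up 48.0% of total RPKM in AO1 and 41.2% in AO2, while they took up 23.2% in MA1 and 14.2% in MA2. The means were 44.6% ± 4.84 (SD, n = 2) in AO and 18.7% ± 6.37 (SD, n = 2) in MA, a difference of 25.9 percentage points that exceeded the spread between samples of a vessel. Complex IV subunits were the largest part of this, with 25.7% and 22.3% of total RPKM in AO1 and AO2 against 11.6% and 7.22% in MA1 and MA2. Complex V subunits made up 18.5% and 15.4% in AO against 9.49% and 5.74% in MA, and mt-Cytb 3.85% and 3.44% against 2.09% and 1.25%. The share of mt-Co1 was nearly the same in AO1 and AO2, at 10.86% and 10.87%, although its RPKM in AO1 was 1.17 times that in AO2.

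**Figure D2:**
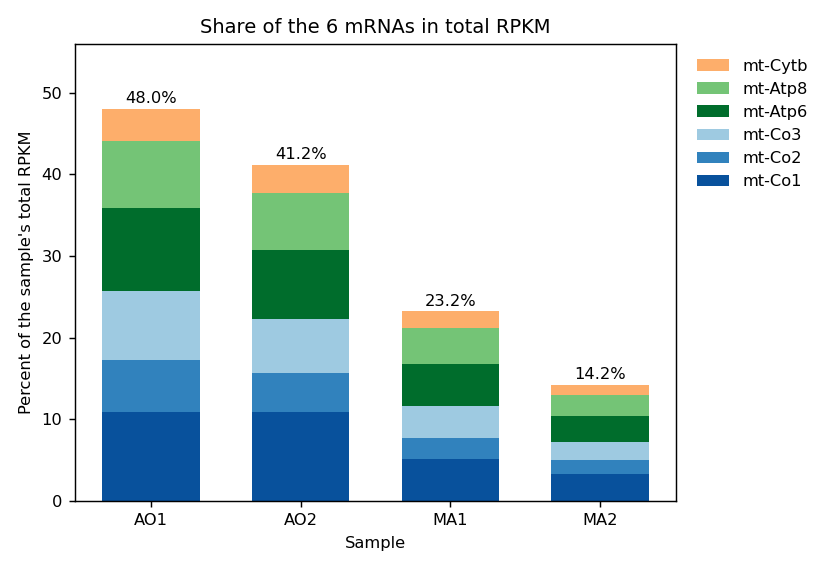
Percent of each sample's total RPKM taken by the 6 mRNAs, as stacked bars from 0 with 1 color per mRNA and the sum printed above. The sums are 48.0% and 41.2% in the AO samples against 23.2% and 14.2% in the MA samples.

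In recovered reads, which weight a gene by its length, the 6 mRNAs held 32.5% (AO1) and 25.1% (AO2) of the reads that fell on genes, and 9.90% (MA1) and 5.95% (MA2). Counting 684 bases and 2 times the reads for mt-Co2, the shares were 33.7% and 26.0% in AO and 10.3% and 6.24% in MA. The 95% Wilson interval of each share was at most 0.010 percentage points to either side, which covers counting error only. The vessels kept the same order in reads and in RPKM, and the AO mean share of reads was 3.63 times the MA mean.

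The total RPKM of all genes was higher in AO, with a mean of 711642 ± 78383 (SD, n = 2) against 443671 ± 23292 (SD, n = 2) in MA. The 6 mRNAs accounted for 235394 RPKM, or 87.8%, of this difference of 267971, and all other identifiers for 32577. Without the 6, the totals were 398780 and 386106 RPKM in the AO samples and 353260 and 366473 RPKM in the MA samples, with means 1.09-fold apart. In reads the rest went the other way. The reads on all other genes averaged 57569900 in AO and 67253600 in MA, so AO had fewer reads left for them although more reads in all fell on genes.

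For the test, RPKM were scaled by median-of-ratios factors and taken as log2(scaled RPKM + 0.5), on which a fold change of such abundant mRNAs is hardly altered by the 0.5. Limma was fitted to the 7203 genes with at least 1 RPKM in at least 2 samples, all 6 mRNAs included. A gene passed with an adjusted p of at most 0.05, more than a 2-fold difference, and both MA samples on 1 side of the AO mean. Of the 6, 4 passed, all enriched in AO, when 7.71% of all genes tested passed in either direction and 6.77% as enriched in AO. The median log2 fold change, MA minus AO, was -2.44 over the 6 and -0.05 over all genes tested. Without scaling these medians were -1.94 and 0.37. Scaling by 1 factor per sample shifts all genes nearly alike, so the gap between the 6 and the rest was bound to change little.

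After scaling, mt-Co1 had a log2 fold change of -2.58 (standard error 0.38, adjusted p = 0.0326 from limma), which is 5.98-fold higher in AO. The value for mt-Co2 was -2.59, with a standard error of 0.43 and an adjusted p = 0.0413 from limma. mt-Cytb was at -2.35 with a standard error of 0.41 and an adjusted p = 0.0460 from limma, and mt-Atp6 at -2.38 (standard error 0.43, adjusted p = 0.0487 from limma). mt-Co3 was at -2.50 (standard error 0.47, adjusted p = 0.0533 from limma) and mt-Atp8 at -2.36 (standard error 0.44, adjusted p = 0.0520 from limma). The 6 fold changes lay within 0.24 of each other on the log2 scale. No test compared the 4 that passed with the 2 that did not. The standard errors do not give the error of such a difference, because all 6 were read in the same 4 samples. AO1 and MA1 share a rat, and with the replicate number as a block mt-Co3 passed (adjusted p = 0.0460 from limma) while mt-Atp6 did not (adjusted p = 0.0518 from limma), when 6.33% of all genes passed as enriched in AO.

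The standard errors of 0.38 to 0.47 were above the median of 0.19 over all genes tested. Within a vessel AO1 was 1.17 to 1.57 times AO2 and MA1 was 1.57 to 1.93 times MA2 before scaling. The size of the difference placed the 6 among the genes tested with the lowest log2 fold changes, and between 79 genes for mt-Co2 and 113 for mt-Cytb had a lower log2 fold change. Unadjusted p values were between 0.00187 and 0.00488.

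**Figure D3:**
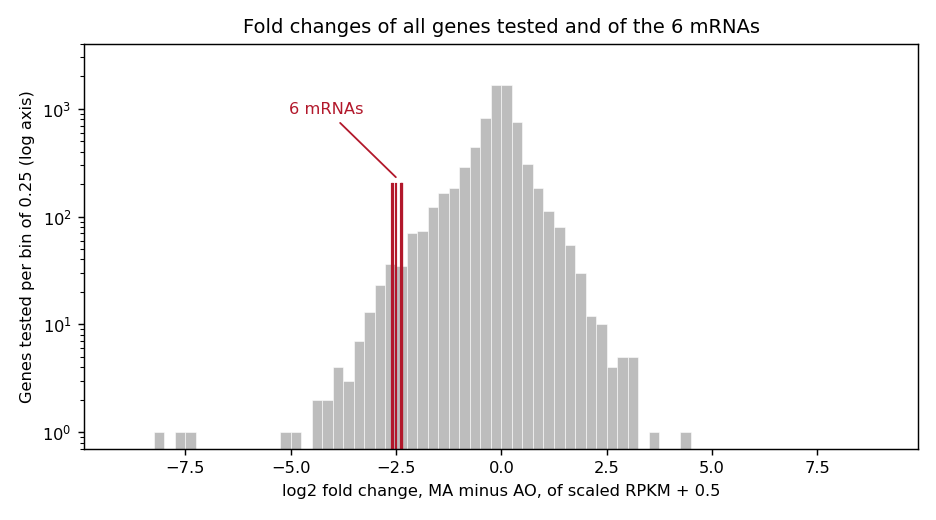
Number of genes tested (log axis) in bins of 0.25 of the log2 fold change, MA minus AO, after median-of-ratios scaling, with the 6 mRNAs as red lines whose height has no meaning. The 6 lie between -2.59 and -2.35, while the median of all 7203 genes is -0.05 (under quantile normalization mt-Atp6 and mt-Atp8 change sign).

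The number of the 6 that passed depended on the processing, while the direction did not, except under quantile normalization. With the RPKM as deposited 0 of the 6 passed (all 6 at an unadjusted p below 0.05), with adjusted p values of 0.0519 to 0.0671 from limma, when 3.61% of all genes passed as enriched in AO. Limma-voom on the recovered reads also passed 0 of the 6 (all 6 at an unadjusted p below 0.05), with adjusted p values of 0.0542 to 0.0837, against 7.59% of all genes. As a share of total RPKM all 6 passed, against 2.6% of all genes, with smaller log2 fold changes than after median-of-ratios scaling. Their unadjusted p values from limma were larger there, at 0.0083 to 0.0230. They passed because 5429 of the 7203 genes tested had one below 0.05, which loosens the adjustment. The 6 are a large part of that total themselves, and 3044 genes passed as enriched in MA. With the 6 taken out of the total, 0 of the 6 passed, against 3.42% of all genes. Without a variance trend all 6 passed, against 6.64%. With upper-quartile scaling only mt-Co1 passed, against 4.83%. Quantile normalization and a filter at 0.1 RPKM passed 0 of the 6, against 5.21% and 2.38% of all genes as enriched in AO. The filter left all 6 at an unadjusted p below 0.05, and quantile normalization left 0. Without any 1 of the 4 samples, 0 of the 6 and 0 of all genes passed, with all 6 at an unadjusted p below 0.05 except without AO1, where 0 were.

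**Figure D4:**
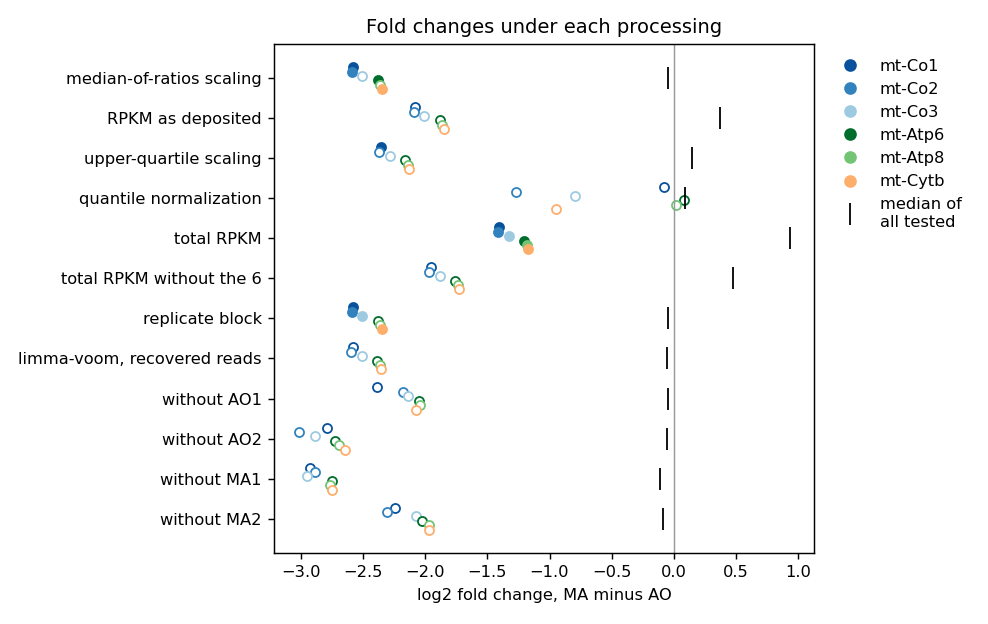
Log2 fold change, MA minus AO, of the 6 mRNAs by way of processing, with filled points for mRNAs that passed the limits, open points for those that did not, and a black tick for the median of all genes tested. All points lie below 0 except mt-Atp6 at 0.08 and mt-Atp8 at 0.02 under quantile normalization.

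Ratios between the 6 mRNAs within a sample need no scaling between samples. The steadiest was mt-Atp8 over mt-Atp6, the pair on a shared mRNA, at 0.805 and 0.814 in the AO samples and 0.842 and 0.802 in the MA samples, with the highest 1.05 times the lowest. mt-Cytb over mt-Atp8 ranged 1.06-fold and mt-Cytb over mt-Atp6 1.08-fold. In these 3 pairs the vessels overlapped. The ratios among mt-Co1, mt-Co2 and mt-Co3 ranged more widely over the samples, by 1.23-fold to 1.35-fold, and the vessels overlapped in these 3 pairs as well. mt-Co2 over mt-Co1, for example, was 0.589 in AO1 and 0.437 in AO2, and the MA samples lay between them at 0.485 and 0.522.

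The remaining 9 of the 15 pairs set an mRNA of complex IV against one of complex V or III. In all 9 the ratio to the complex IV mRNA was higher in both MA samples than in both AO samples, by 0.12 to 0.24 in the mean log2 ratio, with pooled SDs of 0.061 to 0.168. The gap between the vessels was narrow in some pairs. For mt-Cytb over mt-Co2 the higher AO value was 0.725 and the lower MA value 0.728, for mt-Cytb over mt-Co3 they were 0.517 and 0.522, and for mt-Atp6 over mt-Co3 1.28 and 1.29. mt-Cytb over mt-Co1 was 0.354 and 0.317 in the AO samples, against 0.406 and 0.380 in the MA samples. mt-Atp6 over mt-Co1 was 0.943 and 0.783 in AO against 1.00 and 0.971 in MA, and its mean log2 difference of 0.20 was 0.065 without AO2 and 0.33 without AO1. For mt-Atp8 over mt-Co3 the values were 0.977 and 1.04 in AO against 1.08 and 1.15 in MA. The 9 pairs share their 6 mRNAs and 4 samples and are not independent. Of all genes tested, 95.5% had a higher ratio to mt-Co1 in both MA samples than in both AO samples, and 3 of the other 5 mRNAs did. A higher ratio to mt-Co1 in MA is therefore not particular to complexes V and III. For ratios to mt-Co2 and mt-Co3 the share over all genes was not computed.

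As a share of the summed RPKM of the 6, complex IV made up 53.5% in AO1 and 54.1% in AO2, and 50.1% in MA1 and 50.8% in MA2. Complex V made up 38.5% and 37.5% in AO against 40.9% and 40.4% in MA, and mt-Cytb 8.01% and 8.37% against 9.0% and 8.77%. The vessels did not overlap in any of the 3, but they differed by a few percentage points, while the sum of the 6 differed 3.81-fold. The 3 shares add up to the whole and come from the same levels as the ratios between pairs, so they are not separate results. No test was made of these shares.

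**Figure D5:**
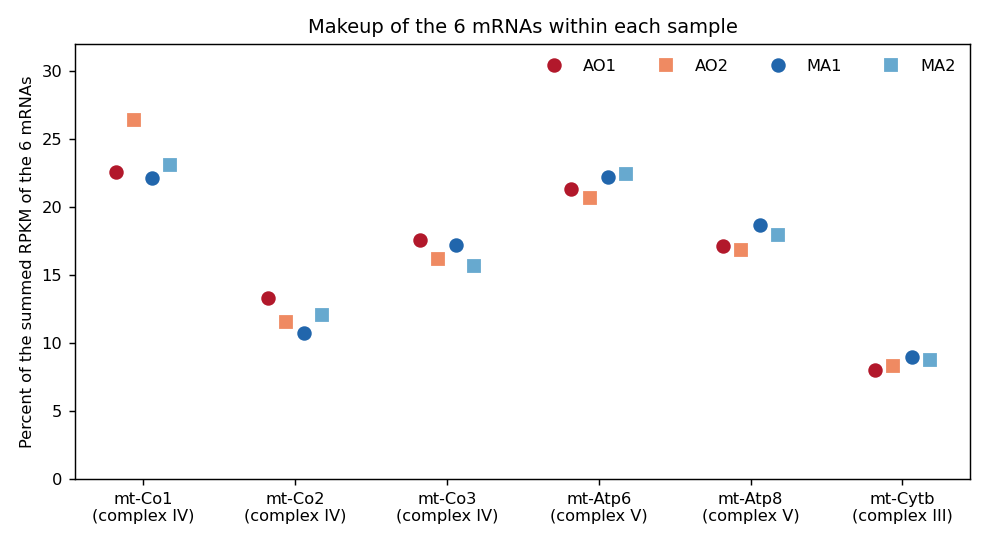
Percent of the summed RPKM of the 6 mRNAs that each contributes, 1 point per sample, circles for replicate 1 and squares for replicate 2. mt-Atp6, mt-Atp8 and mt-Cytb take a slightly larger share in both MA samples than in both AO samples, as in mt-Cytb with 8.01% and 8.37% in AO against 9.0% and 8.77% in MA, while the points of the complex IV mRNAs overlap between vessels.

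Over the 4 samples, the centred log2 levels of each of the 6 lay within a Euclidean distance of 0.08 to 0.22 from their common mean pattern, a mean that includes the mRNA itself. Of the other genes tested, ENSRNOG00000033615 lay nearest to this mean, at a distance of 0.07, with 9815 and 7357 RPKM in the AO samples and 2760 and 1661 RPKM in the MA samples. It was also an abundant mRNA. Its log2 fold change of -2.49 (standard error 0.38) follows from its choice by nearness to the 6 and is no separate result. The next nearest, ENSRNOG00000002916, lay at 0.25 and was a low mRNA with 5.80 RPKM in AO1 and 0.37 in MA2. Nothing in the lists says what either identifier encodes.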

How the data were processed

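RNA-Seq was done on 2 samples of AO and 2 of MA. By the paper's methods, paired-end libraries from the TruSeq RNA kit, known to select poly(A) RNA and not to keep strand, were aligned with TopHat (version not given in the sources used here) to the Ensembl rat genome Rnor5, and reads with more than 2 locations were discarded, a step that can remove mitochondrial reads with nuclear copies. The values the authors deposited are RPKM. Whether a read or a pair was counted is not given in the sources used here. Library sizes, lengths and whole reads were solved from the RPKM steps (7 decimals) with numpy 2.4.6 and numba 0.67.0 in Python 3.11.15. All 20747 genes above 0 came out whole, within 0.0045 of a read, and where all counts share a divisor the smallest solution was kept.

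For the fit, each sample's RPKM were scaled with median-of-ratios factors over genes above 0 in all samples, between 0.789 for AO1 and 1.22 for MA1, and log2(scaled RPKM + 0.5) was fitted with limma 3.58.1 (trend, no block) in R 4.3.3 with Benjamini-Hochberg adjustment. The study's own test, DESeq on counts, was not repeated. The fits and the read recovery were tested on simulated data. Only AO1 and MA1 share a rat. The p values rest on the spread between the 2 samples per vessel, which limma draws towards a trend over all genes tested.

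Members and lists were chosen with earlier results of these data known. The named genes are the 6 mRNAs and the 2 tested identifiers nearest to their mean pattern. The reference tables hold no mitochondrial gene and no Ensembl identifier, so no sequence is shown and the lists of nuclear subunits and cell type markers were not analysed here.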

Additional observations from a re-analysis of the deposited data

How the results depend on the processing

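Of the 6 mRNAs, 4 passed the limits as enriched in AO. The number was 0 with the RPKM as deposited, quantile normalization, the total RPKM without the 6 as scale, a filter at 0.1 RPKM, no filter, limma-voom, and without each sample in turn, and 1 (mt-Co1) with upper-quartile scaling. Of these, the filter at 0.1 RPKM tested 13811 genes and no filter 20747, and leaving out a sample left 1 sample in a vessel, assumed to vary like the others. For the rest, the cause was not tested. In each of these the 6 mRNAs had an unadjusted p below 0.05, except 0 of 6 under quantile normalization and without AO1. Highest adjusted p values reached 0.080 with the filter at 0.1 RPKM and 0.235 with no filter. With a pseudocount of 0.1 the number was 3, against 7.26% of all genes as enriched in AO. It was 4 with a pseudocount of 1 (5.96%), the replicate block (456 genes, and 107 in MA), no direction filter or no fold limit (7.65%). It was 6 with total RPKM as scale, no trend or an FDR of 0.1 (8.77%). The replicate numbers do not mark pairs beyond the rat shared by AO1 and MA1, and same-numbered samples hardly deviated together (correlation over genes 0.018). Among all genes, 488 passed as enriched in AO and 67 in MA, against 260 and 170 as deposited, 187 and 3044 with total RPKM, and 246 and 291 with total RPKM without the 6, while 0 passed in either direction with no filter or without a sample.

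The log2 fold changes stayed between -3.02 and -1.17 under 15 of 16 settings. Under quantile normalization mt-Atp6 was at 0.082 and mt-Atp8 at 0.021, the reverse of their sign elsewhere, while mt-Co1 was at -0.08, mt-Cytb at -0.95 and mt-Co2 at -1.27. This normalization gives genes of equal rank equal values. Because mt-Co1, mt-Atp6 and mt-Atp8 held places 1 to 4 in every sample, it could hardly show a difference for them. The log2 ratio of the summed RPKM was -1.97 as deposited and -2.47 with median-of-ratios scaling. The difference in share was 25.9 percentage points of total RPKM. Set against the RPKM of all other genes, the 6 came to a mean of 81.2% in AO and 23.4% in MA, which differ by 57.7. That is a ratio and not a share of a whole, so 57.7 cannot be compared with 25.9. Leaving out a sample moved the log2 ratio to mt-Co1 of mt-Co2 from -0.01 to between -0.23 and 0.21, and that of mt-Co3 from 0.08 to between -0.10 and 0.25, so these have no settled direction. Those of mt-Atp6, mt-Atp8 and mt-Cytb kept their sign, but not their size. mt-Atp6 went from 0.20 to 0.065 without AO2 and 0.33 without AO1, mt-Atp8 from 0.22 to 0.095 without AO2 and 0.35 without AO1, and mt-Cytb from 0.23 to 0.15 without AO2 and 0.31 without AO1.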
